A study of Drosophila melanogaster with 80 samples.

Results

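The 9 genes described here are components of the insulin pathway of Drosophila melanogaster: the insulin-like peptide genes Ilp2, Ilp3, Ilp5 and Ilp6, the relaxin-like peptide gene Ilp8, the insulin-binding protein gene ImpL2, the insulin receptor gene InR, and the downstream genes foxo and Thor. They were chosen by name, as the rows of the deposited gene table whose FlyBase identifiers carry these symbols, and make up 9 of 17697 gene identifiers. RNA came from whole larvae, adult females and adult males kept either at 19 °C throughout or under a temperature cycle of 19 ± 8 °C, which reaches 27 °C at its high and 11 °C at its low point. Both regimes were sampled at both points, and constant animals were at 19 °C at either. The high and low points are different times of sampling. In constant animals they therefore differ in time of sampling and not in temperature. Under fluctuation they differ in both, so time and temperature cannot be told apart in a comparison of the points within that regime. The labels give 7 days of treatment for larvae and 13 for adults, with no separate value for adults after 6 cycles. Larvae were taken after 6 cycles, and adults, moved to fresh food every second day, after 6 and after 12 cycles. This gives 20 groups of 4 libraries, or 80 in all: 4 groups of larvae, 8 of females and 8 of males. No mutation, transgene or drug is named for any group, and the labels name neither a strain nor how many animals made up a library. The design text calls the 4 libraries of a group biological replicates. Whether each came from its own vial is not stated, so p-values measure the spread between these libraries.

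As background, insulin-like peptides are hormones that bind the receptor InR. Active InR works through PI3-kinase and Akt to promote growth, and Akt keeps the transcription factor Foxo out of the nucleus. When signalling is low, Foxo enters the nucleus and can activate genes that include InR and Thor, the gene of the translation inhibitor 4E-BP. Ilp2, Ilp3 and Ilp5 are made mainly by a small cluster of insulin-producing neurons in the brain, Ilp6 by the fat body, the tissue that stores fat and glycogen, and Ilp8 by growing or damaged imaginal discs in larvae and by follicle cells of the adult ovary. ImpL2 is a secreted protein that binds insulin-like peptides and inhibits their signalling.

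In the genome build BDGP6.54, Ilp2 (3L:9799698-9800440), Ilp3 (3L:9801298-9802120) and Ilp5 (3L:9823349-9823897) are neighbours on chromosome arm 3L. ImpL2 (3L:4224006-4236147) and Ilp8 (3L:17029812-17032080) are on the same arm, Ilp6 (X:2331493-2334658) is on the X chromosome, InR (3R:21570248-21619321) and foxo (3R:14056945-14087978) are on 3R, and Thor (2L:3478434-3479612) is on 2L. The exons of ImpL2 share 1651 bases on the same strand with CG46460, which is not a row of the table, so reads of the latter may be included in the ImpL2 count. Those of Ilp8 share 29 bases in all with lncRNA:CR45756 on the same strand and CG7730 on the other, and whether counting used strand is not stated in the labels.

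The deposited estimated counts summed to between 87.1 M and 130.7 M a library. Larvae carry no sex label, and the male marker roX1 ran from 21.9 to 248 CPM in the 16 larval libraries. It ran from 227 to 488 CPM in males and from 0.308 to 2.22 CPM in females. Stage markers, and sex markers in adults, matched the labels, with 1 exception. In the male library of constant temperature, low point, 6 cycles, replicate 2, 8 female markers summed to 16680 counts per 1000000 (CPM) and 17 eggshell genes to 7257 CPM, against 22.94 to 69.05 and 8.8 to 18.6 CPM in the other libraries of its group; it is called below the library with female transcripts. A pair of other male libraries stood apart in the sum of 10 neuron markers. The sum was 437 CPM in replicate 8 of constant temperature, high point, 12 cycles (1018 to 1175 in the rest of its group) and 586 CPM in replicate 1 of fluctuation, high point, 6 cycles (1164 to 1345). Results within males are given with these 3 libraries, and also without them where the call changes.

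Levels were first set side by side by stage and sex. Per kilobase of exon, the mean CPM of females ran in the order Thor 150, Ilp8 127, foxo 29.2, ImpL2 21.1, Ilp6 7.65, InR 6.59, Ilp2 4.84, Ilp5 1.85 and Ilp3 1.60. In males the order was Thor 289, ImpL2 36.9, foxo 34.9, Ilp2 18.2, Ilp6 11.4, Ilp5 4.45, InR 4.22, Ilp3 3.43 and Ilp8 1.61. Larvae had Thor at 610, Ilp6 at 47.4, ImpL2 at 45.3, foxo at 20.3, Ilp2 at 6.65, Ilp5 at 4.80, InR at 4.54, Ilp3 at 3.9 and Ilp8 at 0.673 CPM per kilobase. Over all libraries Thor had the highest mean of the 9 in all 3, and Ilp8 was second in females and last in males and larvae. In females at the low point, though, Ilp8 was above Thor: 125 against 112 CPM per kilobase at constant temperature and 135 against 103 under fluctuation, over both ages. The libraries of neighbours in these orders overlapped, except that females had gaps below Ilp8 and below ImpL2, males below Thor, and larvae below Thor, ImpL2 and foxo.

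**Figure D1:**
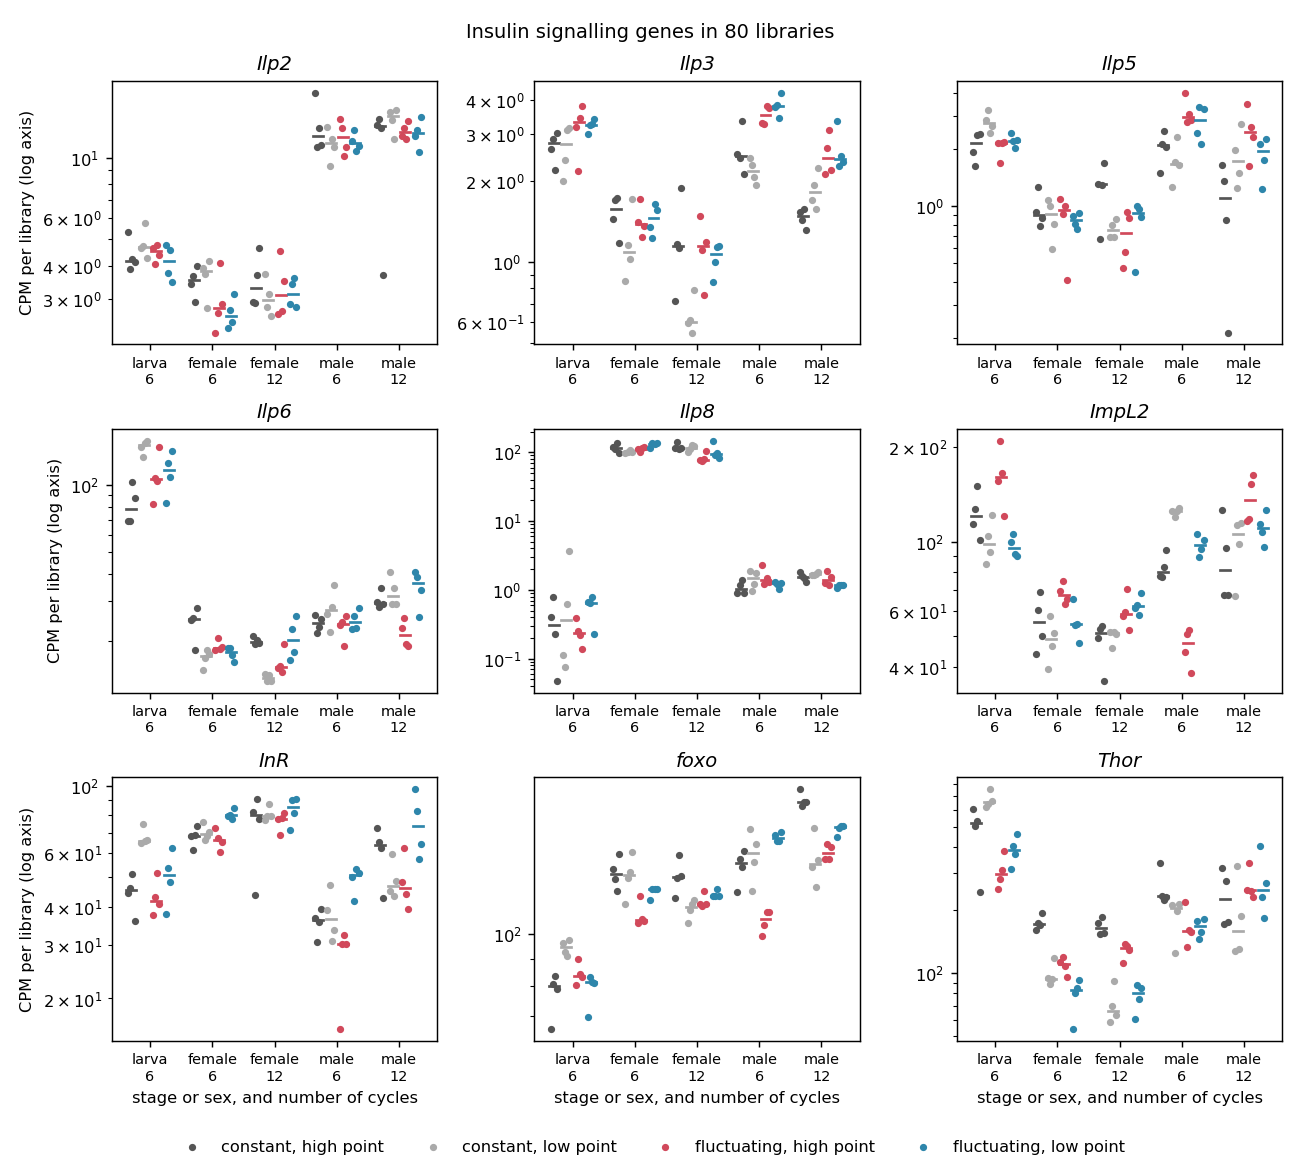
Level of each of the 9 genes in every library, in CPM on a log axis, by stage or sex and number of cycles; points are libraries, short lines are medians of 4, and colours give regime and point. Ilp8 lies between 75.2 and 145 CPM in the 32 female libraries and Ilp6 and Thor have their highest medians in larvae.

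Ilp8 gave the widest contrast. In 32 libraries each, it ran from 75.2 through a median of 112 to 145 CPM in females and had a median of 1.29 CPM in males, 0.0115 times the female median. In the 16 larval libraries the median was 0.325 CPM, and replicate 4 of constant temperature at the low point, at 3.72 CPM, was above all others. The male library with female transcripts held 0.952 CPM of Ilp8, below the 1.2 to 1.86 CPM of its group, although its eggshell sum exceeded the female median of 4043 CPM. CG7730, whose exons touch those of Ilp8, was also higher in females (median 78.5 CPM) than in males (17.1 CPM).

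Males and females were compared over both points at constant temperature, with the log2 fold change and its standard error (SE) from a fit of all 64 adult libraries. Of all genes tested 94.6% passed the test there (edgeR's quasi-likelihood test, Benjamini-Hochberg adjusted p below 0.05), so that the 8 of 9 genes that passed do not set these genes apart. The median gene was 0.88 higher in males on the log2 scale. That median was 1.04 with DESeq2's size factors and 1.11 with library sizes alone, and differences are therefore also given relative to it. Ilp2 was 1.60 ± 0.108 higher in males (adjusted p = 6.23e-20), which is 0.72 above the median gene, and was the only one of the 9 above that median at constant temperature. ImpL2 (0.72), Ilp3 (0.64), Thor (0.62), Ilp5 (0.54) and Ilp6 (0.43) were higher in males by less than the median gene. InR was 0.93 lower in males as log2 (-0.93 ± 0.0829, adjusted p = 2.99e-15), or -1.81 relative to the median gene. Under fluctuation 6 of 9 genes passed between the sexes at the high point (91.7% of all genes) and 9 of 9 at the low point (92.2%). At the high point all 9 passed in DESeq2, with its size factors and with library sizes: ImpL2 went from 0.10 to 0.30 with DESeq2 and Ilp6 from 0.14 to 0.34, while its size factors moved the median gene from 0.83 to 1.03. Relative to the median gene under fluctuation, Ilp2 (0.92 at both points), Ilp3 (0.18 at 27 °C and 0.25 at 11 °C) and Ilp5 (0.80 and 0.32) were higher in males, as was Thor at the low point (0.34). For foxo at constant temperature, the sign of the sex difference depended on the fit: 0.01 ± 0.0325 (adjusted p = 0.702) as reported, 0.17 with DESeq2's size factors, 0.24 with library sizes, and -0.07 with no filter on low counts.

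The 3 peptide genes of the insulin-producing neurons were all higher in males than in females, and so were neuron markers. The median CPM of males over that of females was 4.09 for Ilp2, 2.04 for Ilp3, 2.44 for Ilp5 and 3.43 for the sum of 10 neuron markers, which ran from 261 to 430 CPM in females and from 437 to 1368 CPM in males. These ratios are not relative to the median gene, itself higher in males by 1.11 as log2 with library sizes at constant temperature. Relative to it, Ilp3 and Ilp5 were at -0.24 and -0.34 there, and above 0 under fluctuation. In RNA of whole animals, fewer cells of a type and less RNA per cell cannot be told apart. The part of the neuron share in the sex difference was not tested. The male library with the lowest neuron sum, replicate 8 of constant temperature, high point, 12 cycles, had 3.68 CPM of Ilp2 against 12.9 to 13.9 in its group and 0.215 CPM of Ilp5 against 0.847 to 1.66, but 1.32 CPM of Ilp3 against 1.43 to 1.57. The other library with few neuron markers, replicate 1 of fluctuation, high point, 6 cycles, did not follow: its Ilp2 was 14 CPM (10.2 to 12.9 in the rest of its group) and its Ilp5 3.98 CPM (2.79 to 3.07).

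**Figure D2:**
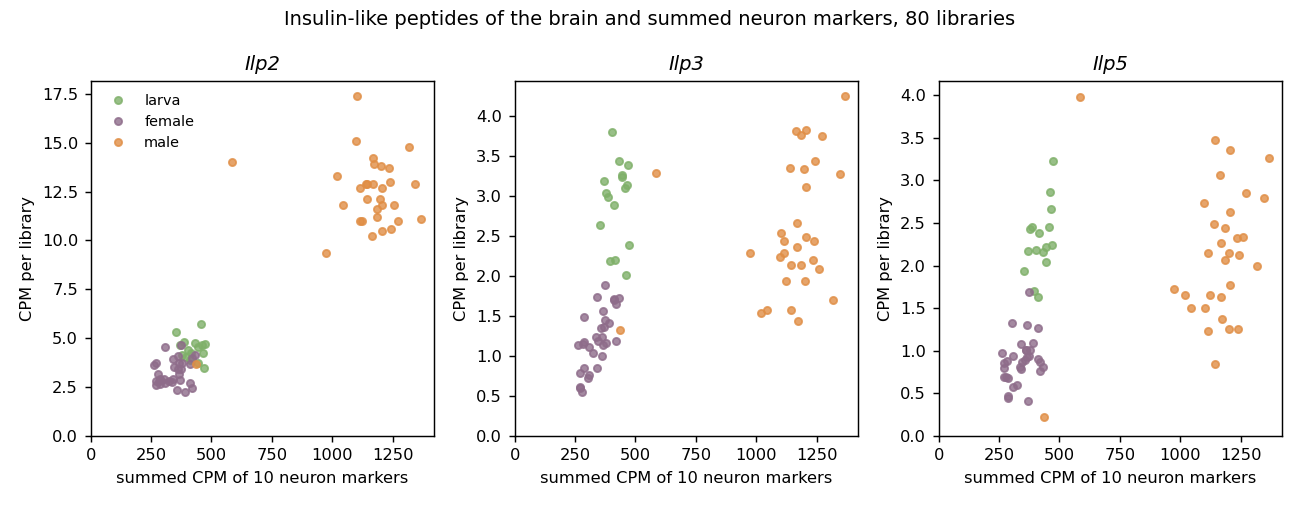
CPM of Ilp2, Ilp3 and Ilp5 in each library against the summed CPM of 10 neuron markers, with 16 larval, 32 female and 32 male libraries as points. All males lie to the right of all females on the neuron axis, with the pair of male libraries at 437 and 586 CPM nearest to them.

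For the regime, the question was whether animals under the cycle differed from constant animals sampled at the same point. At the high point 0 of 9 genes passed in larvae (4.37% of all genes tested did; 2 of the 9 had an unadjusted p below 0.05, and 1 passed in DESeq2), 5 of 9 in females (30.6%) and 5 of 9 in males (31.9%). At the low point 2 of 9 passed in larvae (1.11%), 2 of 9 in females (22.9%) and 4 of 9 in males (30.5%). The description below is of the single genes. Contrasts that use the same group share its libraries.

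**Figure D3:**
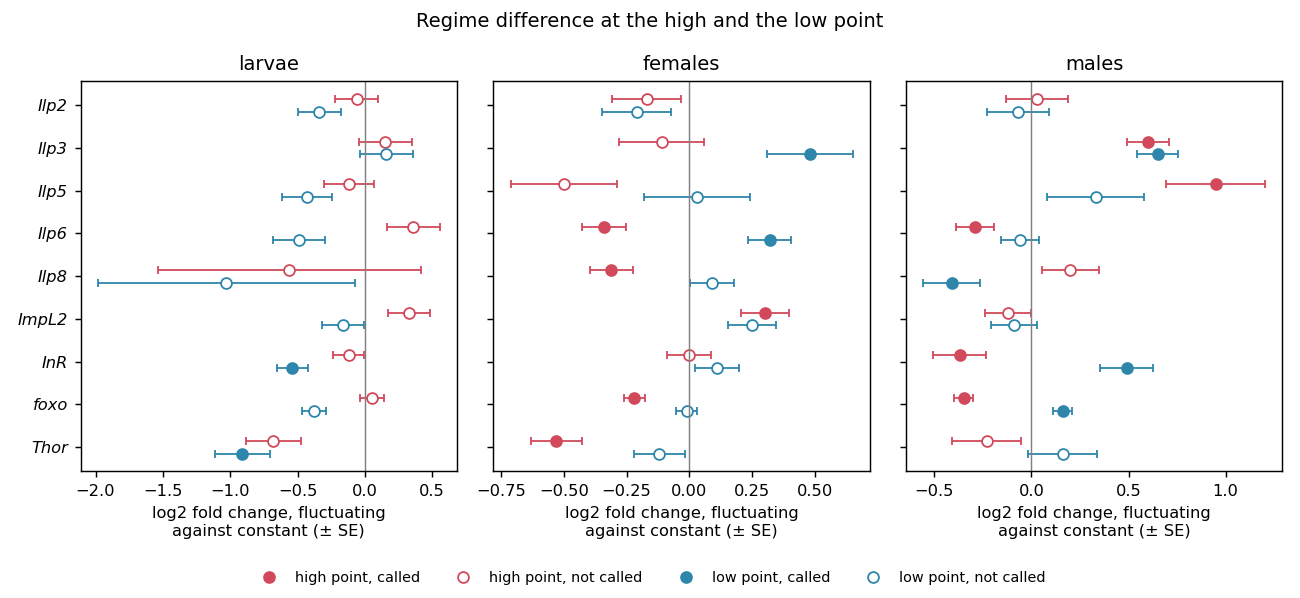
Log2 fold change of fluctuating against constant animals for the 9 genes at the high point (red) and the low point (blue) in larvae, females and males; bars are SE and filled points passed the test. foxo is below 0 at the high point in females and males, and Ilp3 is above 0 at both points in males.

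Ilp3, the least abundant of the neuronal peptides per kilobase in all 3 stages, was higher under fluctuation in males at both points. At the low point after 6 cycles, constant males had 2.43, 2.29, 2.08 and 1.94 CPM, and fluctuating males 3.76, 3.82, 3.44 and 4.25 CPM. After 12 cycles the values were 1.70, 1.93, 1.57 and 2.24 CPM in constant and 3.34, 2.28, 2.48 and 2.36 CPM in fluctuating males. All fluctuating libraries were above all constant ones at each age (0.75 ± 0.151 after 6 cycles, where 29.8% of all genes passed, and 0.54 ± 0.152 after 12, where 9.3% did). The call after 12 cycles was lost without replicates 5 (0.52) or 7 (0.48) of the constant or replicate 5 (0.44) of the fluctuating group, with the replicate block (0.53, adjusted p = 0.0502) and in the compared libraries alone (0.54, adjusted p = 0.0754). The log2 difference over both ages was 0.65 ± 0.107 (adjusted p = 5.21e-05) at the low point and 0.60 ± 0.107 (adjusted p = 9.37e-05) at the high point, and both of these held in all 32 fits that left out a library. After 6 cycles at the high point the value was 0.42 ± 0.151 (adjusted p = 0.0523), and it passed without the 3 libraries that stand apart (0.46, adjusted p = 0.0404).

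In females Ilp3 rose at the low point by 0.48 ± 0.17 (adjusted p = 0.0396), a call lost in 11 of 32 such fits, and its high-point value was -0.11 ± 0.168 (adjusted p = 0.676). After 12 cycles at the low point, constant females had 0.592, 0.609, 0.548 and 0.790 CPM, the lowest of any group, and fluctuating females 0.847, 1.0, 1.14 and 1.15 CPM. These groups did not overlap (0.73 ± 0.242, adjusted p = 0.0431; 13.4% of all genes passed), a call lost in 6 of 32 fits that left out a library (0.66 to 0.75, adjusted p up to 0.109). It was also lost with no filter (adjusted p = 0.0539), the replicate block (0.0504), library sizes alone (0.0517) and the compared libraries alone (0.0862). Constant females also had more Ilp3 at the high than at the low point (0.67 ± 0.17, adjusted p = 0.00571). The neuron sums of the low-point groups after 12 cycles ran from 269 to 280 and from 261 to 363 CPM, and the part of these in the difference was not tested. The regime difference at the high point was 0.73 ± 0.201 larger in males than in females (adjusted p = 0.0115; 11.6% of all genes passed). It was lost, at 0.62 (adjusted p = 0.066), in the fit without the libraries numbered 7.

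Ilp5, transcribed in the same neurons, was higher in fluctuating males at the high point. After 12 cycles the constant males had 1.66, 1.37, 0.847 and 0.215 CPM and the fluctuating males 3.47, 1.63, 2.63 and 2.32 CPM; after 6 cycles they had 1.5, 2.15, 2.49 and 2.06 against 3.98, 2.79, 3.07 and 2.85 CPM. The groups were separate after 6 cycles and met after 12, where 1 constant library exceeded the lowest fluctuating one. The log2 difference over both ages was 0.95 ± 0.255 (adjusted p = 0.00486). Without the 3 libraries that stand apart it was 0.72 (adjusted p = 0.00747). In females the value was -0.50 ± 0.212 (adjusted p = 0.0778), and the difference between the sexes, 1.48 ± 0.335, passed the test (adjusted p = 0.00206).

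Ilp2 passed in none of the comparisons of regime, point or cycles within a stage or sex. Its group means in CPM ran from 2.67 to 3.64 in females, from 10.9 to 13.9 in males and from 4.14 to 4.83 in larvae. Its largest regime value was -0.50 ± 0.193, at the low point after 6 cycles in females (adjusted p = 0.0571), where DESeq2 gave -0.49 (adjusted p = 0.041).

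Ilp6 in females depended on the point. After 12 cycles at the high point, it was at 21.0, 19.4, 20.1 and 19.5 CPM in constant females and at 15, 15.3, 14.5 and 19.3 CPM in fluctuating females. At the low point of the same age, it was at 14.2, 13.2, 14 and 13.2 CPM in constant and at 16.4, 22.6, 17.8 and 25.7 CPM in fluctuating females. The fluctuating libraries were all below the constant ones at the high point, where the nearest pair was 19.3 and 19.4 CPM, and all above them at the low point. After 12 cycles the high-point value, -0.30 ± 0.122, did not pass (adjusted p = 0.105). After 6 cycles it was -0.38 ± 0.122 (adjusted p = 0.0193) with overlapping groups, a call lost without replicates 2 (-0.34) or 4 (-0.29) of the constant or replicate 1 (-0.35) of the fluctuating group. Over both ages the log2 difference was -0.34 ± 0.086 (adjusted p = 0.00339) at the high point and 0.32 ± 0.086 (adjusted p = 0.00731) at the low point, and the difference between the points was -0.66 ± 0.122 (adjusted p = 0.000272; 20% of all genes passed that test).

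In constant females, whose temperature did not differ between the points, Ilp6 was higher at the high point by 0.56 ± 0.0862 (adjusted p = 6.22e-05; 21.1% of all genes passed), with all 8 libraries of 1 point above all 8 of the other. Under fluctuation that difference was -0.11 ± 0.0859 (adjusted p = 0.411). The summed fat body markers of these females ran from 4553 to 6427 CPM (constant high), from 4772 to 6714 (fluctuating high), from 4805 to 5864 (constant low) and from 5493 to 8698 CPM (fluctuating low) after 12 cycles. Their part in the Ilp6 differences was not tested. At the low point, the regime difference was 0.61 ± 0.172 larger after 12 than after 6 cycles (adjusted p = 0.0133; 21% of all genes passed).

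Males also had less Ilp6 under fluctuation at the high point, by -0.29 ± 0.0988 as log2 (adjusted p = 0.0263). That call was lost in 5 of 32 fits, without replicate 1 (6 cycles, -0.27) or 7 (12 cycles, -0.26) of the constant high group or without replicates 3 (6 cycles, -0.25), 7 (-0.27) or 8 (-0.26) of the fluctuating high group. After 12 cycles the constant males had 29.7, 28.2, 34.4 and 29.3 CPM and the fluctuating males 22.9, 25.3, 19.4 and 19.0 CPM, without overlap (-0.51 ± 0.14, adjusted p = 0.0118). Under fluctuation males also had less Ilp6 at the high than at the low point (-0.41 ± 0.0989, adjusted p = 0.00151). After 12 cycles at the high point the fat body sum ran from 8717 to 9561 CPM in the constant and from 10110 to 11953 CPM in the fluctuating males, and its part was not tested.

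Ilp8 in females was lower under fluctuation at the high point (-0.31 ± 0.0862, adjusted p = 0.00683), and the difference between the points passed as well (-0.40 ± 0.122, adjusted p = 0.0201). At the low point after 6 cycles, all fluctuating females (117 to 135 CPM) were above all constant ones (96.2 to 108 CPM). That contrast did not pass, but did in DESeq2 (0.31, adjusted p = 0.0365). After 12 cycles the low-point groups overlapped (81.3 to 145 against 99.9 to 127 CPM). After 12 cycles at the high point Ilp8 was at 115, 139, 112 and 116 CPM in constant and at 76.2, 75.2, 79.8 and 104 CPM in fluctuating females. The groups did not overlap, and the log2 difference was -0.51 ± 0.122 (adjusted p = 0.00687; 12% of all genes passed). After 6 cycles the value was -0.12 ± 0.122 (adjusted p = 0.506), and the difference between the ages, -0.39 ± 0.172, did not pass (adjusted p = 0.157; 0 of 9 genes passed against 8.6% of all, 1 had an unadjusted p below 0.05 and none passed in DESeq2). The sum of eggshell genes, which follicle cells also express, ran from 3091 to 5021 CPM in the constant and from 4581 to 17201 CPM in the fluctuating females after 12 cycles, and its part was not tested.

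In fluctuating females Ilp8 was lower after 12 than after 6 cycles (-0.33 ± 0.0862, adjusted p = 0.0149), the only one of the 9 genes that passed there (8.2% of all genes). In males, at levels near 1 CPM, it was lower under fluctuation at the low point (-0.41 ± 0.147, adjusted p = 0.0343), a call lost in 12 of 32 fits that left out a library. After 12 cycles alone it was -0.52 ± 0.208 (adjusted p = 0.127), and it passed without the 3 libraries that stand apart (-0.52, adjusted p = 0.0322). Its regime difference between the points in males, 0.62 ± 0.208 (adjusted p = 0.0315), was lost in 12 of 32 fits as well, among them those without either library of few neuron markers (0.56 and 0.50).

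ImpL2 in males at the high point was lower under fluctuation after 6 cycles and higher after 12. After 6 cycles, the constant males had 77.7, 77.2, 82.9 and 94.3 CPM and the fluctuating males 44.6, 50.9, 52.5 and 38.1 CPM. After 12 cycles the constant males had 126, 67.6, 95.4 and 67.7 CPM and the fluctuating males 116, 118, 153 and 163 CPM. All fluctuating males were lower after 6 cycles. After 12 cycles 1 constant library, at 126 CPM, lay within the range of the fluctuating ones.

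The log2 difference was -0.85 ± 0.167 (adjusted p = 0.000784; 17.4% of all genes passed) after 6 cycles and 0.61 ± 0.166 (adjusted p = 0.0102; 17.5%) after 12 cycles. The change between the ages, 1.46 ± 0.235, passed the test (adjusted p = 0.00412), and only 9 of 15847 genes, or 0.0568%, did so. It held in all 32 fits that left out a library (1.36 to 1.69) and was 1.33 (adjusted p = 0.0371) without the 3 libraries that stand apart. Fitted on the compared libraries alone, it was 1.49 (adjusted p = 0.109), and the value after 12 cycles was 0.62 (adjusted p = 0.0814). Averaged over both ages, the regime difference was -0.12 ± 0.117 (adjusted p = 0.484).

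No regime contrast of ImpL2 passed in males at the low point. It was at 125, 120, 125 and 128 CPM in constant and at 106, 89.2, 94.5 and 101 CPM in fluctuating males after 6 cycles, without overlap (-0.40 ± 0.165, adjusted p = 0.0655). The difference between the ages was 0.63 ± 0.234 (adjusted p = 0.108; 0 of 9 genes passed against 4.75% of all, 2 had an unadjusted p below 0.05 and none passed in DESeq2). Fluctuating males had more ImpL2 after 12 than after 6 cycles over both points (0.95 ± 0.118, adjusted p = 1.08e-06; 28.6% of all genes passed), while constant males gave -0.09 ± 0.117 (adjusted p = 0.618; 23.7%). Males at the high point had less ImpL2 than at the low point under fluctuation (-0.40 ± 0.117, adjusted p = 0.00831). At constant temperature that value was -0.37 ± 0.117 (adjusted p = 0.0419), a call lost without the 3 libraries that stand apart (-0.32, adjusted p = 0.116).

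**Figure D4:**
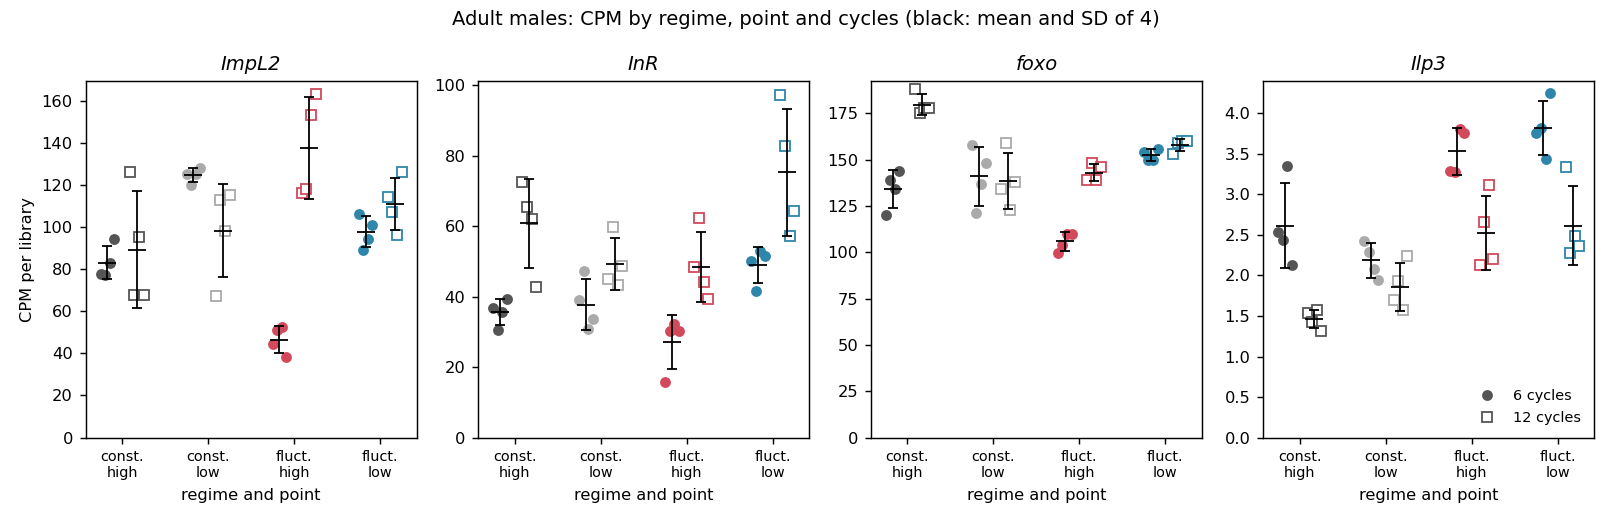
CPM of ImpL2, InR, foxo and Ilp3 in each adult male library by regime and point, with filled circles after 6 and open squares after 12 cycles; black marks are the mean and SD of 4. ImpL2 in fluctuating males at the high point lies between 38.1 and 52.5 CPM after 6 cycles and between 116 and 163 CPM after 12.

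Females had more ImpL2 under fluctuation at the high point, by 0.30 ± 0.0951 as log2 (adjusted p = 0.0176), at 55.9 ± 11.1 against 68.4 ± 4.97 CPM after 6 cycles and 48.0 ± 8.12 against 60.2 ± 7.65 CPM after 12 cycles (SD, n = 4). The libraries of the groups overlapped at both ages, and the regime differences were 0.25 and 0.34. The low-point value was 0.25 ± 0.0951 (adjusted p = 0.0622). Larvae had more ImpL2 at the high than at the low point of the cycle. The high-point larvae had 156, 209, 165 and 121 CPM and the low-point larvae 99.5, 106, 91.6 and 90.3 CPM, with all of the former above all of the latter (0.85 ± 0.157, adjusted p = 0.00641; 4.97% of all genes passed). In constant larvae the difference between the points was 0.36 ± 0.156 (adjusted p = 0.204), and the difference between the regimes, 0.49 ± 0.22, did not pass (adjusted p = 0.246; 0 of 9 genes passed against 1.69% of all, 4 had an unadjusted p below 0.05 and none passed in DESeq2).

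InR in males was lower under fluctuation at the high point and higher at the low point. Fluctuating males at the high point had 15.9, 30.2, 32.3 and 30.3 CPM after 6 cycles and 48.4, 62.4, 44.1 and 39.4 CPM after 12 cycles, against 36.7, 30.6, 35.7 and 39.3 and then 72.7, 65.5, 62.2 and 42.9 CPM in constant males. Fluctuating males at the low point had 50.1, 41.7, 53.1 and 51.7 CPM after 6 cycles and 97.2, 82.7, 57.3 and 64.3 CPM after 12, against 39.1, 47.3, 30.9 and 33.6 and then 45.0, 59.8, 43.4 and 48.7 CPM. The regime groups overlapped at each age and point. Without the 3 libraries that stand apart, 2 further contrasts of InR passed: the high point after 12 cycles, at -0.47 (adjusted p = 0.0166) in place of -0.34, and the low point after 6 cycles, at 0.47 (adjusted p = 0.0166) in place of 0.32.

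The log2 difference was -0.37 ± 0.135 (adjusted p = 0.0362) at the high point and 0.49 ± 0.135 (adjusted p = 0.00685) at the low point. The high-point call was lost in 9 of 32 fits that left out a library, among them the one without the library at 15.9 CPM (-0.28, adjusted p = 0.0815), which also has few neuron markers. The difference between the points, -0.86 ± 0.191, passed (adjusted p = 0.00124; 23% of all genes) and was -0.91 without the 3 libraries that stand apart. Within fluctuating males InR was lower at the high point (-0.77 ± 0.136, adjusted p = 5.14e-05; 30.5% of all genes passed), while in constant males it gave 0.10 ± 0.135 (adjusted p = 0.708; 9.64%). Older males had more InR, by 0.60 ± 0.135 at constant temperature (adjusted p = 0.0016) and 0.80 ± 0.136 under fluctuation (adjusted p = 7.88e-05).

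In females the 8 group means of InR ran from 66.2 to 83.0 CPM, and no comparison of regime, point or cycles passed. Its largest such value was -0.18 ± 0.0883 (high against low point under fluctuation, adjusted p = 0.14). The absence of calls depended on 1 library, replicate 6 of constant females at the high point after 12 cycles, at 43.6 CPM against 77.9 to 90.1 in its group. Without it InR passed between the points under fluctuation (-0.17, adjusted p = 0.0122) and between 12 and 6 cycles at constant temperature (0.21, adjusted p = 0.00248) and under fluctuation (0.17, adjusted p = 0.0416). Fitted on the compared libraries alone, the first of these was -0.20 (adjusted p = 0.018) and the low-point regime value after 6 cycles 0.16 (adjusted p = 0.0426). The difference between males and females in the regime effect was -0.35 ± 0.165 (adjusted p = 0.174) at the high point and 0.42 ± 0.164 (adjusted p = 0.107) at the low point, the latter 0.49 (adjusted p = 0.0207) without the 3 libraries that stand apart.

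foxo was lower under fluctuation at the high point in both sexes. Females had 133, 127, 121 and 142 CPM after 6 cycles at constant temperature and 105, 118, 107 and 106 CPM under fluctuation, without overlap. In males the values after 6 cycles were 120, 139, 134 and 144 against 99.5, 104, 110 and 110 CPM, and after 12 cycles 188, 175, 178 and 178 against 139, 148, 139 and 146 CPM. The male groups did not overlap at either age. After 12 cycles the female groups overlapped, and the value there was -0.14 ± 0.0592 (adjusted p = 0.132).

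The female value after 6 cycles was -0.30 ± 0.0593 (adjusted p = 0.00042; 30.5% of all genes passed). Over both ages, the log2 difference of foxo was -0.22 ± 0.0419 in females (adjusted p = 0.000247) and -0.35 ± 0.0502 in males (adjusted p = 5.44e-06), and it held in all 32 fits that left out a library in each sex. The difference between the sexes was -0.11 ± 0.0649 (adjusted p = 0.297). The low-point difference was -0.01 ± 0.0419 in females (adjusted p = 0.871) and 0.16 ± 0.0501 in males (adjusted p = 0.0193), and the difference between the sexes, 0.20 ± 0.0649 (adjusted p = 0.0462; 7.53% of all genes passed), was lost in 6 of 8 fits that left out the libraries of 1 replicate number and without the 3 libraries that stand apart (0.16, adjusted p = 0.0846). In females the low-point difference was 0.26 ± 0.0838 larger after 12 than after 6 cycles (adjusted p = 0.0248, 21% of all genes passed). That call was lost with library sizes alone. After 12 cycles all fluctuating females (118 to 122 CPM) were above all constant ones (105 to 116 CPM). After 6 cycles the groups overlapped (116 to 122 against 114 to 143 CPM). The regime effect differed between the points in females (-0.21 ± 0.0592, adjusted p = 0.014) and in males (-0.51 ± 0.0709, adjusted p = 4.99e-06). Constant females themselves had more foxo at the high than at the low point (0.14 ± 0.0419, adjusted p = 0.0199). That call was lost in 3 of 32 fits that left out a library. In each sex, constant high-point libraries were all above constant low-point ones after 12 cycles, and overlapped with them after 6. Within fluctuating males all 8 high-point libraries were below all 8 low-point libraries (-0.36 ± 0.0502, adjusted p = 1.51e-06).

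Thor, a transcriptional target of Foxo, was lower under fluctuation at the high point in females. Constant females had 160, 173, 170 and 194 CPM after 6 cycles and 174, 154, 185 and 155 CPM after 12, and fluctuating females 113, 119, 108 and 96.2 and then 112, 138, 135 and 129 CPM. All 8 fluctuating libraries were below all 8 constant ones, and the log2 difference was -0.53 ± 0.102 (adjusted p = 0.000228). By age, it passed after 6 cycles (-0.71 ± 0.144, adjusted p = 0.000503). After 12 cycles it did not pass, except in the compared libraries alone (-0.36, adjusted p = 0.043). Constant females at the low point had 95.1, 89.2, 93.5 and 118 and then 58.3, 69.7, 91.5 and 62.9 CPM, and fluctuating females 54.2, 80.2, 85.1 and 92.3 and then 60.4, 88.1, 74.9 and 85.3 CPM. Those overlapped, with a difference of -0.12 ± 0.101 (adjusted p = 0.463). After 6 cycles alone it was -0.39 ± 0.144 (adjusted p = 0.0428; 26.4% of all genes passed), a call lost in 12 of 32 fits that left out a library (-0.51 to -0.27).

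Thor was higher at the high than at the low point in both regimes, by 1.05 ± 0.102 in constant females (adjusted p = 1.13e-07) and by 0.63 ± 0.102 under fluctuation (adjusted p = 2.38e-05; 25.5% of all genes passed), with no overlap of the 8 libraries of each point in either. The difference between the regimes in that step, -0.42 ± 0.143 (adjusted p = 0.039), was lost in 16 of 32 fits that left out a library. In males neither regime contrast of Thor passed (-0.23 ± 0.178, adjusted p = 0.353, and 0.16 ± 0.178, adjusted p = 0.535). Replicate 6 of constant males at the low point after 12 cycles was at 326 CPM, against 127 to 187 in its group. Without it the low-point value after 12 cycles passed (0.93, adjusted p = 0.0139), as did its difference from 6 cycles (1.14, adjusted p = 0.0458). In that case Thor also passed between the points at constant temperature (0.54, adjusted p = 0.0342). After 6 cycles at the high point it was at 336, 234, 223 and 232 CPM in constant and at 219, 134, 161 and 158 CPM in fluctuating males, without overlap (-0.63 ± 0.253, adjusted p = 0.0894), and it passed without the 3 libraries that stand apart (-0.77, adjusted p = 0.036). Fluctuating males had more Thor after 12 than after 6 cycles (0.77 ± 0.179, adjusted p = 0.00203), and constant males gave -0.02 ± 0.178 (adjusted p = 0.963).

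**Figure D5:**
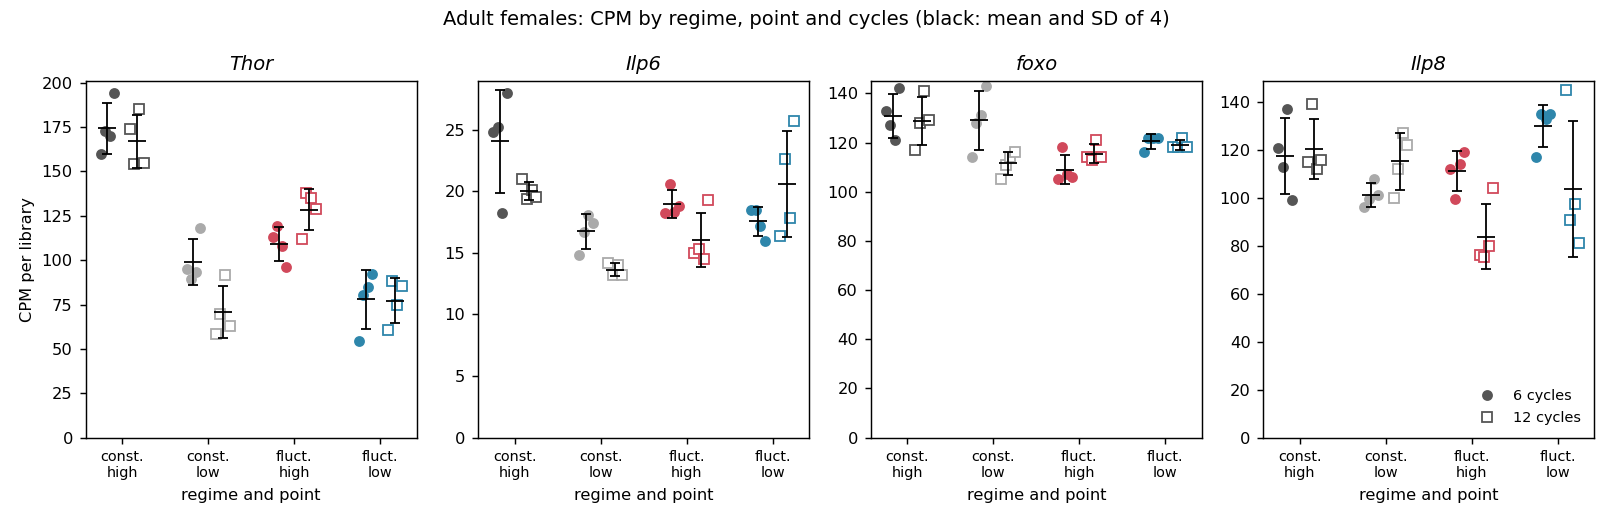
CPM of Thor, Ilp6, foxo and Ilp8 in each adult female library by regime and point, with filled circles after 6 and open squares after 12 cycles; black marks are the mean and SD of 4. Thor at the high point lies between 154 and 194 CPM at constant temperature and between 96.2 and 138 CPM under fluctuation.

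In larvae, Thor and InR were lower under fluctuation at the low point. Thor was at 625, 641, 756 and 668 CPM in constant and at 316, 405, 373 and 462 CPM in fluctuating larvae. InR was at 64.8, 74.9, 65.7 and 66.1 CPM in constant and at 38.0, 53.7, 48.4 and 62.6 CPM in fluctuating larvae. Neither gene's groups overlapped.

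The log2 differences at the larval low point were -0.91 ± 0.206 for Thor (adjusted p = 0.0484) and -0.54 ± 0.115 for InR (adjusted p = 0.0359), and foxo was at -0.38 ± 0.0887 (adjusted p = 0.0559). The Thor call was lost in 13 and the InR call in 9 of 16 fits that left out a library, and both were lost when libraries were scaled by size alone, which moved the median of all genes by 0.12. At the high point Thor was at -0.68 ± 0.205 (adjusted p = 0.0712; 0.0103 in DESeq2). In constant larvae at the low point Ilp6 was at 148, 134, 155 and 158 CPM against 68.9, 69.1, 103 and 87.5 CPM at the high point, without overlap (-0.78 ± 0.196 for high against low, adjusted p = 0.06; 0 of 9 genes passed against 0.417% of all, 5 had an unadjusted p below 0.05 and 2 passed in DESeq2). Their 21 late third-instar genes summed to between 77360 and 83980 CPM, against 53646 to 73336 CPM at the high point and 64514 to 79148 CPM in fluctuating larvae at the low point. Their fat body sums were 76070 to 83286, 61886 to 77650 and 72945 to 76227 CPM, and the gene Fbp1 counted in either sum. The part of larval age, of the sex of the larvae and of fat body share in the larval values was not tested.

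Between 6 and 12 cycles, 4 of the 9 genes fell in constant females (46.4% of all genes passed): Ilp3 (-0.63 ± 0.17), Ilp6 (-0.31 ± 0.086), Thor (-0.31 ± 0.101) and foxo (-0.14 ± 0.0419). In constant males 23.7% of all genes passed. Ilp3 fell there (-0.50 ± 0.107), while Ilp6 (0.33 ± 0.0987), InR, foxo (0.23 ± 0.0501) and Ilp8 (0.40 ± 0.147) rose. The Ilp8 call was lost in 25 of 32 fits that left out a library, whose values ran from 0.31 to 0.47. In fluctuating males 28.6% of all genes passed. Ilp3 fell there (-0.44 ± 0.107) and ImpL2, Ilp6 (0.27 ± 0.0988), InR, Thor and foxo (0.32 ± 0.0502) rose. The Ilp6 call was lost in 11 of 32 such fits. Age and the number of cycles cannot be told apart here.

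Compared at constant temperature after 6 cycles, larvae had more Ilp6 and Thor than adults. Ilp6 was 2.68 ± 0.111 higher as log2 than in females (84.9% of all genes passed) and 2.66 ± 0.111 higher than in males (87%). Relative to the median gene these were 2.51 and 2.75. Thor was 2.32 ± 0.16 and 1.92 ± 0.158 higher. The summed fat body markers had a larval median 13.9 times that of females and 7.88 times that of males. Their list includes Lsp2 and Fbp1, which also served as larva markers, so the sum reflects stage as well as tissue. Lsp2 alone had a median of 21856 CPM in larvae, 364 CPM in females and 694 CPM in males. The part of the fat body share in the Ilp6 and Thor differences was not tested.

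Of the pathway genes outside the 9, 56 entered the larval, 55 the female and 57 the male fit: other insulin-like peptides, extracellular modulators, intracellular insulin and TOR components, signals to the insulin-producing cells, and targets of Foxo and TOR. In larvae 1 rose at the high point, the receptor of short neuropeptide F sNPF-R (0.67 ± 0.155, adjusted p = 0.0297; 4.37% of all genes passed), and 2 fell at the low point (1.11%), the kinase gene Pdk1 (-0.54 ± 0.11, adjusted p = 0.0311) and the limostatin gene Lst (-0.69 ± 0.145, adjusted p = 0.0323). In females 4 rose and 14 fell at the high point, against 30.6% of all genes that passed, with a median log2 difference of -0.05 over the list (0 over all genes), and 9 rose and 5 fell at the low point, against 22.9%, with a median of 0.03 (0.01 over all genes). In males 6 rose and 11 fell at the high point and 9 rose and 10 fell at the low point, against 31.9% and 30.5% of all genes, with medians of -0.02 and 0 (0.01 and -0.01 over all genes). The counts of the single lists below are to be read against the same shares.

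Of the signals to the insulin-producing cells at the high point, 4 fell and 1 rose of 16 in females, and 4 fell and 2 rose of 17 in males (30.6% and 31.9% of all genes passed). Of the same list, 7 rose and 2 fell at the low point in females, and 5 rose and 2 fell in males. AkhR, the receptor of adipokinetic hormone, the fly counterpart of glucagon, fell at the high point in both sexes (-0.73 ± 0.119, adjusted p = 3.61e-05 in females; -0.49 ± 0.103, adjusted p = 0.000518 in males) and rose at the low point in females (0.58 ± 0.119, adjusted p = 0.000728) and, picked after its value was seen, in males (0.31 ± 0.103, adjusted p = 0.0221). In females CCHa2, a gut and fat body peptide gene (0.58 ± 0.138), the growth-blocking peptide receptor gene mthl10 (0.59 ± 0.0792) and Ilp7 (0.83 ± 0.307, adjusted p = 0.0497) rose at the low point. Gbp1 (-0.48 ± 0.104) and Gbp2 (-0.43 ± 0.0994), growth-blocking peptides of the fat body that act on insulin secretion, fell in females at the high point, and Gbp2 rose in males at the low point (0.53 ± 0.0524, adjusted p = 2.98e-08). The activin-like ligand daw fell in males at the high point (-1.14 ± 0.202, adjusted p = 7.61e-05).

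Among targets of Foxo and TOR, 3 of 8 fell in females at the high point, with the gluconeogenic enzyme gene Pepck1 at -1.58 ± 0.318 (adjusted p = 0.000416), and 1 of 8 fell in males (30.6% and 31.9% of all genes passed). At the low point 2 rose and 3 fell in males, among them Pepck1 (0.70 ± 0.263, adjusted p = 0.0434) and the PGC-1 gene srl (-1.27 ± 0.315, adjusted p = 0.00313). Of 24 intracellular components, 3 rose and 5 fell in females and 4 rose and 6 fell in males at the high point. In males 14-3-3epsilon, whose protein binds phosphorylated Foxo, fell at both points (-0.57 ± 0.0643, adjusted p = 1.61e-07; -0.60 ± 0.0643, adjusted p = 1.16e-07), and melt, a regulator of Foxo and TOR, fell at the high point (-0.49 ± 0.0795, adjusted p = 2.56e-05).

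The genes most like each of the 9 were taken as those with the highest Pearson correlation over 20 group means of log2 CPM, after the mean of each stage or sex was removed. Candidates were 10028 to 13110 genes, and all of them share libraries with the 9. How high the best of so many candidates would lie by chance was not tested. InR was most like CG8679 (0.93), mino (0.88) and Gprk2 (0.88), and foxo was most like CG3224 (0.88), Hipk (0.86) and frc (0.85). Ilp3 was most like igl (0.89), lncRNA:CR44922 (0.87) and CG33521 (0.87), Ilp5 like CG15172 (0.87), Ilp6 like CG4822 (0.82), and Ilp8 like CG17768 (0.80). Thor was most like CG13116 (0.80), ImpL2 like CG1662 (0.78), and Ilp2 like GstE3 (0.69). None of the other 8 genes was among the 3 most like any of the 9.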

How the data were processed

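Whole-animal mRNA was sequenced after oligo(dT) selection, per the labels' protocols. The authors used FastQC, Trimmomatic, HISAT2, StringTie and the BDGP6 genome, per the submitters' processing notes; the notes name no versions. The deposited table holds estimated counts per gene from the authors, not whole-fragment counts: 36.8% of values from 1 to 24 are multiples of 4, against 25% if even. Totals were 87.1 M to 130.7 M. Estimated counts were rounded and tested with edgeR 4.0.16 (quasi-likelihood, TMM, filterByExpr minimum count 10, R 4.3.3) in fits of larvae, females, males, adults and all libraries, with Benjamini-Hochberg adjustment over all genes tested and a threshold of 0.05. All 9 genes passed the filter in each fit. Printed CPM are per library total without TMM. DESeq2 1.42.0, other scalings, no filter, counts divided by 4, a replicate block, fits of the compared libraries alone and left-out libraries were alternatives, with 2 added after seeing the data: library size alone and leaving out 3 male libraries. Same-numbered libraries correlated in deviation from their group means at over 0.1 in every pair for 1 pair of groups, fluctuating larvae at the high and low points (0.18 to 0.75, median 0.46). The block changed no call between these groups. In other larval comparisons it lost the low-point regime calls of Thor and InR, and added Ilp6 and InR between the points at constant temperature. Scripts were tested on simulated data. Gene names and coordinates came from BDGP6.54, in which 17559 of 17697 identifiers matched. The genes, the lists and the naming rule (of other pathway genes, the up to 4 largest changes past the threshold per contrast; 3 most alike genes per member) were chosen with earlier results of these data known.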

Additional observations from a re-analysis of the deposited data

Results flagged for a closer look

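In 17 of 180 groups of 4 libraries, 1 library lay far from the others by Dixon's ratio at the critical value for 4, which chance gives in about 1 in 20. In CPM, ImpL2 was at 46.0 in replicate 6 of constant females at the low point after 12 cycles (others 51.0 to 51.7). Ilp2 was at 3.68 in replicate 8 of constant males at the high point after 12 cycles (12.9 to 13.9), and Ilp5 at 1.7 in replicate 2 of fluctuating larvae at the high point (2.16 to 2.18). Ilp6 was at 19.3 and Ilp8 at 104 in replicate 8 of fluctuating females at the high point after 12 cycles (14.5 to 15.3 and 75.2 to 79.8). Ilp8 was also at 139 in replicate 6 of constant females at the high point after 12 cycles (112 to 116), at 117 in replicate 1 of fluctuating females at the low point after 6 cycles (133 to 135), at 3.72 in replicate 4 of constant larvae at the low point (0.0761 to 0.62) and at 1.05 in replicate 5 of fluctuating males at the low point after 12 cycles (1.18). InR was at 74.9 in replicate 2 of constant larvae at the low point (64.8 to 66.1) and at 15.9 in replicate 1 of fluctuating males at the high point after 6 cycles (30.2 to 32.3). Thor was at 336 in replicate 1 of constant males at the high point after 6 cycles (223 to 234). foxo was at 121 in replicate 7 of fluctuating females at the high point after 12 cycles (113 to 114), at 116 in replicate 1 of fluctuating females at the low point after 6 cycles (122), at 122 in replicate 7 of fluctuating females at the low point after 12 cycles (118), at 153 in replicate 5 of fluctuating males at the low point after 12 cycles (159 to 160) and at 69.8 in replicate 1 of fluctuating larvae at the low point (81.1 to 82.9).

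In 14 tests the regime effect itself differed between groups, as log2 with edgeR's test. The share of all genes that passed is given in brackets. Between the points in females the differences were -0.66 for Ilp6, -0.40 for Ilp8, -0.42 for Thor and -0.21 for foxo (20%). In males they were 0.62 for Ilp8, -0.86 for InR and -0.51 for foxo (23%). Between 12 and 6 cycles they were 0.61 for Ilp6 and 0.26 for foxo in females at the low point (21%). The value for ImpL2 in males at the high point was 1.46 (0.0568%). Between males and females they were 0.73 for Ilp3, 1.48 for Ilp5 and 0.54 for Ilp8 at the high point (11.6%). At the low point foxo was at 0.20 (7.53%). The value for Ilp8 was 0.38 (adjusted p = 0.0795) without the 3 male libraries that stand apart. None of the 9 genes passed between the points in larvae (1.69%). The same held between the ages in females at the high point (8.6%) and males at the low point (4.75%).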

How the results depend on the processing

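Of 342 gene values in 38 comparisons, 117 passed the test, and 93 of these kept their call under every left-out library while 24 lost it in some. The share of all genes that passed ran from 0.0568% to 94.6% over these comparisons. The pooled total therefore does not set the 9 genes apart. DESeq2 lost none of the 117 and added 15 of the same sign and 1 of the other (foxo, below); DESeq2's size factors lost 1, no filter 5, library size alone 12 and fits of the compared libraries alone 15. The foxo sex difference reversed at constant temperature with no filter (-0.07) and, under fluctuation at the high point, with DESeq2's size factors (0.11), DESeq2 (0.11) and library size (0.13). The cause was not tested.

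Counts of the 9 genes that passed moved by over 1.5 times as follows; smaller moves are not listed, except that the sexes under fluctuation at the high point went from 6 to 9 with DESeq2, its size factors and library size. In larvae, the high-point count went from 0 to 1 in DESeq2; the low-point count from 2 to 1 with no filter and 0 with the replicate block and library size; the constant point contrast from 0 to 2 in DESeq2, 1 with counts divided by 4, 2 with the block, 3 with library size and 2 in the compared libraries. In females, the fluctuating point contrast went from 2 to 1 with the block; high point after 12 cycles from 1 to 2 in the compared libraries; low point after 6 cycles from 1 to 0 with no filter, 3 in DESeq2, 2 with counts divided by 4 and 2 in the compared libraries; low point after 12 cycles from 2 to 1 with no filter, block and library size; and the low-point difference between ages from 2 to 4 in DESeq2. In males, the constant point contrast went from 1 to 2 in DESeq2, and to 0 with the block, in the compared libraries and without the 3 libraries that stand apart. High point after 6 cycles went from 2 to 4 without those 3; after 12 cycles from 5 to 3 in the compared libraries. Low point after 6 cycles went from 1 to 2 in the compared libraries and without the 3; after 12 cycles from 3 to 1 in the compared libraries; the high-point difference between ages from 1 to 0 there. The sex difference in the low-point regime effect went from 1 to 0 with no filter, 2 in DESeq2, 2 with library size and 3 without the 3 libraries.

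Leaving out a library gave ranges of 0 to 1 (larvae, high point), 0 to 3 (low point) and 0 to 2 (constant point contrast); in females 1 to 3 (low point), 1 to 3 (fluctuating point contrast), 1 to 2 (high point, 12 cycles), 0 to 4 (low point, 6 cycles), 1 to 3 (low point, 12 cycles), 1 to 2 (ages under fluctuation) and 2 to 4 (low-point difference between ages); in males 3 to 5 (high point), 0 to 2 (constant point contrast), 1 to 2 (low point, 6 cycles), 0 to 4 (low point, 12 cycles), 3 to 5 (ages at constant temperature) and 0 to 1 (low-point difference between ages); and 0 to 1 for the sex difference at the low point.

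Replicate numbers were not found to pair libraries except in 1 of 38 pairs of groups: correlations of same-numbered libraries ran from -0.54 to 0.75, and every pair was over 0.1 only for the high and low points of fluctuating larvae. Between these groups the block changed no call, but it lost the low-point regime calls of larvae (Thor and InR). With the replicate block 8 of 101 calls were lost and 3 were added; direct comparisons of 12 with 6 cycles have no such fit, since the numbers differ between the ages.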
